A study of Homo sapiens with 59 samples.

Results

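The late part of the first day of CHIR99021 exposure (18, 20, 22 and 24 h, 12 libraries) was compared with the middle of that day (10, 12, 14 and 16 h, 12 libraries). The 24 libraries were chosen by hour alone, from 59 RNA sequencing libraries of neural stem cells that cover 20 exposure lengths between 2 and 72 h. At each of the 8 hours there are 3 libraries, which the labels name A1, A2 and B1.

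Both windows hold WA09 (H9) cells, an established human embryonic stem cell line, and they share every step but the hours of CHIR99021, an inhibitor of GSK3 that switches on canonical WNT signalling. Cells were replated with the ROCK inhibitor Y27632 at 10 µM, moved to E6 medium, given FGF8b at 200 ng per mL, and then put in neuromesodermal progenitor (NMP) medium with CHIR99021 on an automated culture platform. That medium was exchanged for neural stem cell medium with retinoic acid at the hour that names the time point, and the second medium was renewed every day for 4 days before lysis. The measurement is therefore made 4 days after CHIR99021 ended. A longer exposure was also a longer culture in total, and no arm without CHIR99021 was analysed here, so these cannot be told apart. All libraries come from 1 cell line, and the labels give no clock times.

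In the tail of the embryo, WNT and FGF signals hold progenitors in a state in which HOX genes open one after another along their clusters, and retinoic acid ends that state and starts neural differentiation. HOX genes give cells of the hindbrain and spinal cord their position along the head-to-tail axis, with low paralog numbers in front and high numbers behind. Cells that leave the neural path in such cultures can take epithelial, placodal, endodermal or mesenchymal fates, each with its own markers.

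TPM carry no read number, so library depth is unknown and no counting interval was made. Libraries had 11893 to 12857 genes at a TPM of 1 or more at 18 to 24 h and 12306 to 12882 at 10 to 16 h, and correlations between any 2 of the 24 were 0.881 to 0.966. The 100 most abundant genes took 27.7% to 34.4% of the TPM at 18 to 24 h and 26.8% to 32.2% at 10 to 16 h. Markers of neural progenitors were present in every one of the 24 libraries: SOX2 was no lower than 80.4 TPM in the later window or 29.4 TPM in the earlier one, and the lowest value was above 100 TPM in both for PAX6, NES, VIM and CDH2. SOX1 stayed between 0.340 and 13.2 TPM. The labels do not say that A1, A2 and B1 are separate cultures, so the p-values below measure only the spread between libraries, which may be technical. In bulk RNA, fewer cells of a type and less RNA per cell cannot be told apart.

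Differences are given as log2(TPM + 1), a scale that shrinks the change of low genes, and are tested with limma over 15305 genes at a Benjamini-Hochberg adjusted p under 0.05. At that threshold 551 genes, 3.60% of those tested, were higher at 18 to 24 h, and 420, or 2.74%, were lower. The median difference of all genes tested was 0.0073, of the higher genes 0.64 and of the lower genes −0.82. The lower genes held more of the large differences: 169 fell and 114 rose by at least 1, and 23 fell and 4 rose by at least 2. Of all genes tested, 19 (0.124%) had every library of 18 to 24 h above every library of 10 to 16 h, and 29 (0.189%) had every one below. All 59 libraries shared 1 estimate of the spread; without 3 libraries outside both windows that had under 10000 genes at a TPM of 1 (A2 of 72 h and B1 of 4 and 42 h) 2008 genes passed, the 971 among them. Without the libraries labelled A1 271 passed, and without those labelled A2 515.

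The genes that rose most included a HOX gene, a nerve growth factor receptor and several genes of neurons. RRAD, a small GTPase that regulates calcium channels, ranged between 1.67 and 22.7 TPM at 18 to 24 h (median 9.88), against 0 and 4.74 TPM at 10 to 16 h (median 0) (log2 difference 2.56, SE 0.464, limma adjusted p = 1.6e-04). Its windows overlapped through 2 libraries of 18 h, and the median of 10 to 16 h was listed at 0. PGF, a placental growth factor of the VEGF family, ranged between 11.7 and 44.9 TPM at 18 to 24 h (median 23.9), against 2.75 and 11.7 TPM at 10 to 16 h (median 5.30) (log2 difference 2.03, SE 0.348, limma adjusted p = 7.4e-05). The windows of PGF met at 11.7 TPM without overlapping. KCNE1L, a potassium channel subunit, ranged between 56.9 and 109.5 TPM at 18 to 24 h (median 84.7), against 16.2 and 40.4 TPM at 10 to 16 h (median 28.4) (log2 difference 1.56, SE 0.167, limma adjusted p = 3.5e-09). DGKB, a diacylglycerol kinase, ranged between 7.60 and 21.1 TPM at 18 to 24 h (median 9.74), against 0.220 and 5.40 TPM at 10 to 16 h (median 2.40) (log2 difference 1.89, SE 0.247, limma adjusted p = 4.2e-07), and for both genes the windows did not overlap. Among genes of neurons and glia, the membrane glycoprotein GPM6A rose by 1.54, the guidance cue SEMA5B by 1.72, the vesicular monoamine transporter SLC18A2 by 1.59 and the GABA receptor subunit GABRA3 by 1.58. FXYD5 (2.15), CCDC164 (1.86), TCTEX1D1 (1.67) and FAM72D (1.76) complete the 15 highest with the HOX genes and NGFR described below; FAM72D has near-identical copies, so its value is uncertain.

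The genes that fell most are led by APOA1, the main protein of high-density lipoprotein, and DLX5, a homeobox gene of the neural plate border and placodes, both described below. ABCC2, an organic anion pump, ranged between 0 and 6.39 TPM at 18 to 24 h (median 0.955), against 5.28 and 32.3 TPM at 10 to 16 h (median 14.2) (log2 difference −2.80, SE 0.239, limma adjusted p = 1.1e-11), and its windows met only where 2 libraries of 18 h reached the lowest of 16 h. PDZK1, a scaffold of epithelial transporters, ranged between 1.78 and 25.9 TPM at 18 to 24 h (median 8.26), against 26.1 and 127 TPM at 10 to 16 h (median 55.6) (log2 difference −2.55, SE 0.309, limma adjusted p = 8.7e-08). ACMSD, an enzyme of tryptophan breakdown, ranged between 0 and 8.93 TPM at 18 to 24 h (median 2.15), against 10.4 and 33.4 TPM at 10 to 16 h (median 16.2) (log2 difference −2.80, SE 0.334, limma adjusted p = 6.5e-08). For PDZK1 and ACMSD the windows did not overlap, with 18 to 24 h lower throughout. The same held for the transcription factor TFEC (−2.41), the cell adhesion protein MPZL2 (−2.30), the monocarboxylate transporter family member SLC16A4 (−2.28) and the sodium channel SCN7A (−2.19). SGPP2, a sphingosine phosphate phosphatase, fell by 2.57, TPD52L1 by 2.44 and PRDM1, a zinc finger repressor, by 2.43. NME1, a nucleoside diphosphate kinase, showed a difference of −2.86 (SE 0.767, limma adjusted p = 0.014), but it overlaps a readthrough gene with NME2, so its value is uncertain.

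**Figure D1:**
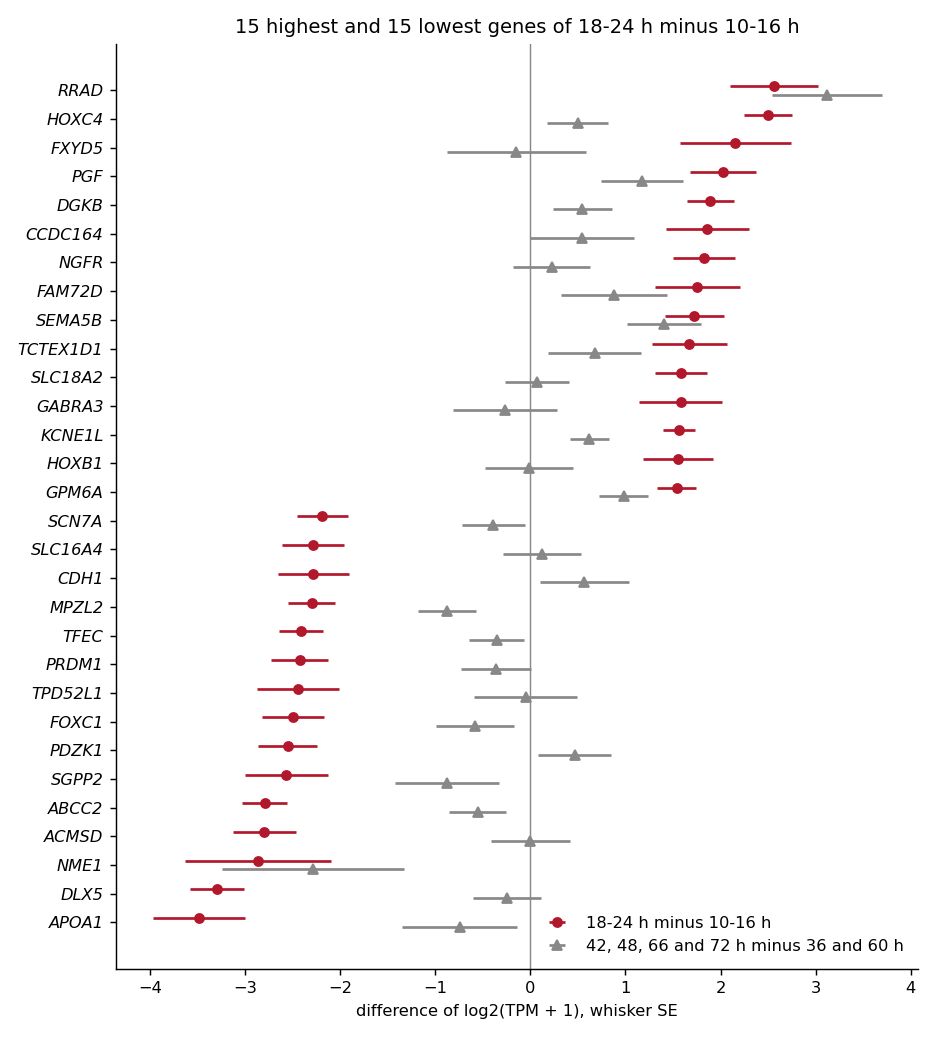
Difference of log2(TPM + 1) with its SE for the 15 highest and 15 lowest genes of 18 to 24 h minus 10 to 16 h (circles), and for the same genes at 42, 48, 66 and 72 h minus 36 and 60 h (triangles). RRAD lies to the right of 0 in both, while DLX5 (−3.30 on day one and −0.25 on later days), CDH1 (−2.28 and 0.57) and PDZK1 (−2.55 and 0.46) lie far to the left on day one. On later days CDH1 was uneven at 42 h (14.9 ± 25.2 TPM, SD) and PDZK1 at 72 h (5.45 ± 9.45 TPM).

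HOX genes of paralog groups 1 to 4 were the list with the highest median difference, 0.86, against 0.0073 for all genes: 5 of 12 rose and none fell. HOXC4 ranged between 4.50 and 28.0 TPM at 18 to 24 h (median 14.6), against 0 and 11.7 TPM at 10 to 16 h (median 2.82) (log2 difference 2.50, SE 0.255, limma adjusted p = 1.1e-09). Its 3 libraries of 10 h were listed at 0, and those of 24 h were the highest of the 24. HOXB4 ranged between 47.7 and 157 TPM at 18 to 24 h (median 98.9), against 13.4 and 76.7 TPM at 10 to 16 h (median 55.8) (log2 difference 1.29, SE 0.200, limma adjusted p = 1.3e-05). The windows of HOXB4 overlapped through the 18 h libraries, which lay among those of 12, 14 and 16 h. HOXB1, which marks the hindbrain segment r4, had a median of 49.6 TPM at 18 to 24 h (lowest 25.4, highest 115) against 20.4 TPM at 10 to 16 h (lowest 6.06, highest 32.7) (log2 difference 1.55, SE 0.371, limma adjusted p = 0.0048). HOXB2 rose by 1.07 and HOXB3 by 0.74 (limma adjusted p = 1.4e-04 and 0.0013). HOXB1 and HOXB3 kept their call in 24 of 28 alternatives, and not without the A1 libraries or without 10 or 24 h. HOXC4 kept its call in all 28, and HOXB2 and HOXB4 in 27. The other 7 did not pass, among them HOXD4 with a median of 184 TPM at 18 to 24 h against 195 TPM at 10 to 16 h, HOXD3 (0.41) and HOXA3 (0.49).

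Of the 11 tested HOX genes of groups 5 to 9, 4 rose and none fell, with a median difference of 0.41. HOXB8 ranged between 1.76 and 19.7 TPM at 18 to 24 h (median 8.74), against 0 and 6.96 TPM at 10 to 16 h (median 2.62) (log2 difference 1.45, SE 0.184, limma adjusted p = 2.4e-07), and HOXB5 had a median of 28.6 TPM at 18 to 24 h (lowest 7.15, highest 67.0) against 11.4 TPM at 10 to 16 h (lowest 1.86, highest 14.9) (log2 difference 1.53, SE 0.421, limma adjusted p = 0.017). Both ranges overlapped, HOXB5 through the 18 h libraries at a mean of 14.3 TPM. HOXB6 (1.40) and HOXA5 (1.36) also rose, from levels that were listed at 0 in some libraries of each window; HOXB6 kept its call in 20 of 28 alternatives, HOXA5 in 18 and HOXB5 in 19, and none of the 3 did without the A1 libraries or without 10 or 24 h. HOXB9 was listed at 0 in all 12 libraries of 10 to 16 h and reached at most 1.85 TPM at 18 to 24 h, a difference that did not pass (limma adjusted p = 0.34). By gene cluster, 7 of the 9 that rose lie in HOXB, and the remaining 2 are HOXC4 and HOXA5.

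**Figure D2:**
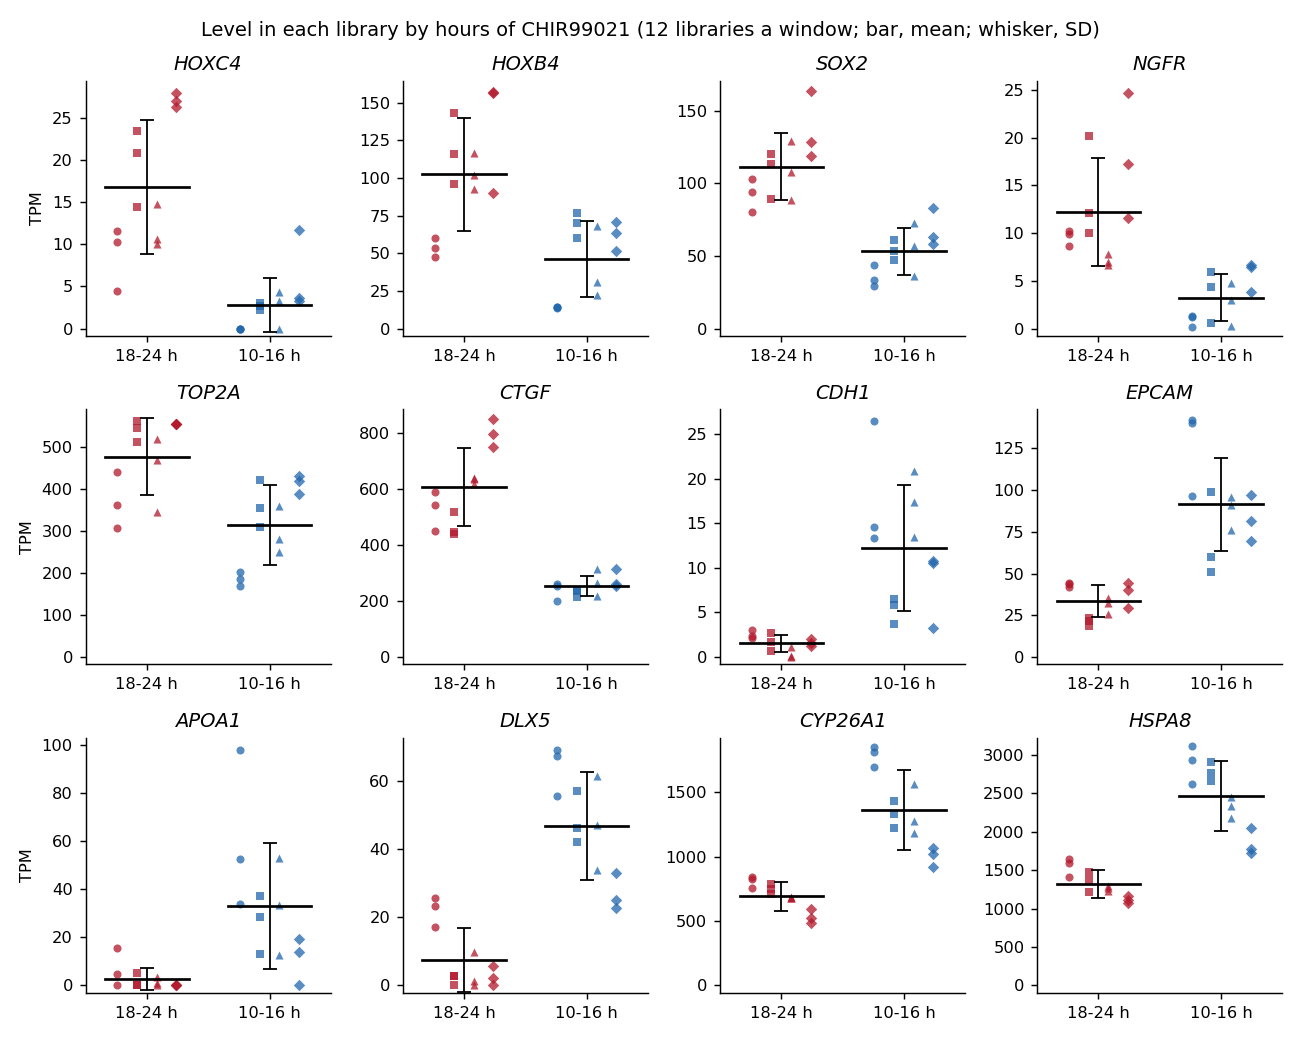
TPM in each library for 12 genes, with 18 to 24 h on the left and 10 to 16 h on the right of each panel, and within a window the hours running from low to high from left to right (a symbol for each hour). Bars are means and whiskers SDs over 12 libraries; CTGF, CDH1, EPCAM, CYP26A1 and HSPA8 show no overlap between windows, while HOXB4 and TOP2A overlap.

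Markers of epithelium fell more often than they rose: 10 of 18 tested members were lower and none was higher, with a median difference of −0.77. The difference was positive for 3 members, at most 0.72, without passing. Relative to 10 to 16 h, the list's median was 0.39, −0.28, 0.22 and −0.23 at 10, 12, 14 and 16 h. It was −0.12 at 18 h, within that range, and −1.08, −0.77 and −0.98 at 20, 22 and 24 h. CDH1, which encodes E-cadherin, ranged between 0 and 3.08 TPM at 18 to 24 h (median 1.58), against 3.22 and 26.5 TPM at 10 to 16 h (median 12.1) (log2 difference −2.28, SE 0.373, limma adjusted p = 3.3e-05). EPCAM, an epithelial adhesion protein, ranged between 18.5 and 44.2 TPM at 18 to 24 h (median 33.8), against 50.9 and 142 TPM at 10 to 16 h (median 93.2) (log2 difference −1.43, SE 0.157, limma adjusted p = 8.3e-09). Neither gene's windows overlapped, and EPCAM was highest in 2 libraries of 10 h. GRHL2, a transcription factor that maintains epithelial identity, ranged between 0 and 0.460 TPM at 18 to 24 h (median 0), against 0 and 5.51 TPM at 10 to 16 h (median 2.26) and ESRP1, an epithelial splicing regulator, ranged between 0 and 1.80 TPM at 18 to 24 h (median 0), against 0 and 8.26 TPM at 10 to 16 h (median 2.67). Both were listed at 0 in 10 of the 12 libraries of 18 to 24 h, and in 1 (GRHL2) and 2 (ESRP1) of 10 to 16 h, and fell by 1.43 and 1.45. The keratin KRT8 stayed abundant and ranged between 245 and 626 TPM at 18 to 24 h (median 334), against 341 and 1028 TPM at 10 to 16 h (median 502) (log2 difference −0.62, SE 0.134, limma adjusted p = 0.0017); KRT18, KRT19, CLDN7, ESRP2 and AP1M2, the other members that fell, had differences between −1.51 and −0.66. CLDN3 and CLDN6 did not pass, at −0.46 and −0.98. The TPM of the list summed to between 501 and 1300.2 at 18 to 24 h and between 711 and 1814 at 10 to 16 h.

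The endoderm and liver-type list fell too: 8 of 16 tested members fell, none rose, and the median difference was −0.80. APOA1 ranged between 0 and 15.7 TPM at 18 to 24 h (median 0), against 0 and 97.9 TPM at 10 to 16 h (median 31.0) (log2 difference −3.49, SE 0.485, limma adjusted p = 1.5e-06). At 24 h all 3 libraries of APOA1 were listed at 0, as was 1 library of 16 h. FOXA1, a pioneer factor of endoderm, ranged between 0.240 and 13.0 TPM at 18 to 24 h (median 6.04), against 11.5 and 28.7 TPM at 10 to 16 h (median 21.9) (log2 difference −1.97, SE 0.349, limma adjusted p = 1.2e-04), and HNF4A, a regulator of liver genes, had a median of 5.46 TPM at 18 to 24 h (lowest 0, highest 22.6) against 23.3 TPM at 10 to 16 h (lowest 9.77, highest 44.8) (log2 difference −2.04, SE 0.398, limma adjusted p = 4.5e-04). AFP, APOB, APOE, FGB and SERPINA1, which encode secreted proteins of the liver and yolk sac, fell by 1.74, 1.09, 1.76, 1.32 and 0.91. GATA6 (−0.48) did not pass, and SOX17, HHEX and CER1 were too low to be tested. The list summed to between 66.4 and 359 TPM at 18 to 24 h, against between 318 and 991 TPM at 10 to 16 h.

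At the neural plate border, 2 of 10 tested members fell and none rose. DLX5 ranged between 0 and 25.6 TPM at 18 to 24 h (median 2.73), against 22.8 and 69.0 TPM at 10 to 16 h (median 46.6) (log2 difference −3.30, SE 0.287, limma adjusted p = 1.3e-11). The only overlap came from 18 h, where DLX5 averaged 22.0 ± 4.32 TPM (SD, n = 3), against 1.82 ± 1.58 TPM at 20 h. Its neighbour DLX6 had a median of 0 TPM at 18 to 24 h (lowest 0, highest 4.56) against 6.54 TPM at 10 to 16 h (lowest 0, highest 10.5) and fell by 1.84. TFAP2A, a factor of border and crest cells, fell by 1.13, and FOXC1, a factor of paraxial mesoderm and periocular mesenchyme, ranged between 0 and 13.8 TPM at 18 to 24 h (median 2.19), against 10.5 and 30.0 TPM at 10 to 16 h (median 16.6) (log2 difference −2.50, SE 0.328, limma adjusted p = 4.6e-07). ZFP42, a gene of pluripotent cells also called REX1, fell by 1.33, with POU5F1 and NANOG not past the threshold. It was the only 1 of 13 tested members of the pluripotency list to fall, where 2.74% of all genes tested fell. The part of these cell types in the neural results below was not tested.

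Neural progenitor genes rose more often than they fell: 7 of 19 tested were higher and 1 lower, with a median difference of 0.20 (0.61, 0.25 and 0.061 over the libraries labelled A1, A2 and B1). SOX2, which maintains neural progenitors, ranged between 80.4 and 164 TPM at 18 to 24 h (median 110.5), against 29.4 and 83.4 TPM at 10 to 16 h (median 55.3) (log2 difference 1.09, SE 0.290, limma adjusted p = 0.014). Its windows overlapped only through 1 library of 16 h. NES, the intermediate filament nestin, ranged between 209.6 and 314 TPM at 18 to 24 h (median 245), against 103 and 214 TPM at 10 to 16 h (median 145) (log2 difference 0.82, SE 0.0784, limma adjusted p = 2.4e-10). POU3F2, a POU factor of the neural tube, ranged between 31.1 and 82.0 TPM at 18 to 24 h (median 44.0), against 8.32 and 41.5 TPM at 10 to 16 h (median 21.9) (log2 difference 1.20, SE 0.144, limma adjusted p = 7.6e-08), and the phosphatase PTPRZ1 rose by 0.73. SOX1 had a median of 7.16 TPM at 18 to 24 h (lowest 4.91, highest 13.2) against 2.75 TPM at 10 to 16 h (lowest 0.340, highest 5.03) (log2 difference 1.21, SE 0.309, limma adjusted p = 0.0091). SOX1 and SOX2 did not pass without the A1 libraries or without the 10 h time point, nor did SOX2 without A2 or without 24 h. SOX9, which promotes stem cell maintenance and crest and glial fates, rose by 1.06, MSI1 by 0.43, and SOX21, which promotes differentiation, fell by 1.37. PAX6 (−0.15), VIM (0.19) and CDH2 (−0.039) did not pass.

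Of 24 tested neuronal cytoskeleton and vesicle genes, 7 rose and none fell, and the median difference was 0.40. MAP2, a dendritic microtubule protein, ranged between 112 and 226 TPM at 18 to 24 h (median 143), against 47.8 and 139 TPM at 10 to 16 h (median 92.0) (log2 difference 0.75, SE 0.0937, limma adjusted p = 1.9e-07). STMN2, a regulator of neuronal microtubules, ranged between 24.4 and 88.7 TPM at 18 to 24 h (median 46.0), against 2.73 and 48.7 TPM at 10 to 16 h (median 26.8) (log2 difference 1.19, SE 0.272, limma adjusted p = 0.0031). RELN, a secreted guide of neuron migration, had a median of 412 TPM at 18 to 24 h (lowest 170.0, highest 495) against 266 TPM at 10 to 16 h (lowest 104, highest 371) (log2 difference 0.69, SE 0.178, limma adjusted p = 0.01). All 3 genes overlapped between windows, and all had their lowest mean of the 8 time points at 10 h. NCAM1 (0.69), SYT1 (0.89), DCX (0.69) and NEFM (0.74) rose as well. NCAM1, SYT1, STMN2 and RELN did not pass without the A1 libraries, without A2 or without the 10 h time point, and the list's median was 0.72, 0.49 and 0.16 over A1, A2 and B1. TUBB3, the neuronal tubulin, had a median of 160 TPM at 18 to 24 h against 248 TPM at 10 to 16 h and did not pass (−0.48, limma adjusted p = 0.11). Of 19 tested proneural and neuronal transcription factors, only ONECUT2 passed, and it was higher (0.76), although the list's median was 0.41. NGFR, the p75 neurotrophin receptor of crest and early neurons, ranged between 6.67 and 24.7 TPM at 18 to 24 h (median 10.2), against 0.200 and 6.71 TPM at 10 to 16 h (median 3.40) (log2 difference 1.83, SE 0.324, limma adjusted p = 1.2e-04). In the neural crest list, where NGFR, ETS1 (both higher) and TFAP2A (lower) were the 3 of 14 to pass, SOX10 was too low to be tested.

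Axon guidance genes moved in both directions, with 2 of 22 higher and 3 lower. PLXNA2, a semaphorin receptor, ranged between 28.6 and 60.0 TPM at 18 to 24 h (median 40.3), against 6.02 and 29.9 TPM at 10 to 16 h (median 16.1) (log2 difference 1.30, SE 0.171, limma adjusted p = 4.6e-07). SEMA3C, a secreted semaphorin, ranged between 26.4 and 56.1 TPM at 18 to 24 h (median 33.2), against 57.0 and 147 TPM at 10 to 16 h (median 79.9) (log2 difference −1.18, SE 0.137, limma adjusted p = 3.8e-08), with no overlap between windows. SEMA6A (−0.75) and the Slit receptor ROBO2 (−0.35) fell, and SLIT1 rose (0.54). In the dorsal neural tube list, the progenitor factors OLIG3 (−1.45) and PAX7 (−1.14) fell and no member of 17 rose. OLIG3 and PAX7 did not pass without the A1 libraries or without A2, nor OLIG3 without 10 or 24 h. PAX3, ZIC1 and ZIC2 did not pass. None of 12 hindbrain, 6 ventral neural tube or 11 tail bud genes passed limma's adjusted threshold (3, 1 and 4 were at an unadjusted p under 0.05), and 1 of 7 forebrain and midbrain genes did, EMX2, which was lower (−0.96) and kept its call in 15 of 27 alternatives, not under quantile normalization or without any 1 label.

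Cell division genes rose in the mitosis list. Of 22 mitosis genes, 14 rose, none fell and all 22 had a positive difference, with a median of 0.51, while none of 22 DNA replication genes passed in either direction by limma, 2 were at an unadjusted p under 0.05, and their median was 0.0024. TOP2A, the topoisomerase that untangles chromosomes before division, ranged between 308 and 564 TPM at 18 to 24 h (median 516), against 169 and 432 TPM at 10 to 16 h (median 334) (log2 difference 0.64, SE 0.0946, limma adjusted p = 5.3e-06). DLGAP5, a spindle protein, ranged between 242 and 418 TPM at 18 to 24 h (median 331), against 130.2 and 320.2 TPM at 10 to 16 h (median 232) (log2 difference 0.53, SE 0.0892, limma adjusted p = 6.1e-05). In both genes the 10 h libraries were the lowest of the 24 and the other hours overlapped. NUSAP1 rose by 0.50, the spindle motor KIF11 by 0.51 and the kinetochore protein CENPF by 0.51; CCNA2, CCNB1, CDK1, AURKA, BUB1, TPX2, KIF23, CENPE and ASPM rose by 0.35 to 0.61. PLK1, AURKB and UBE2C did not pass. Without the 10 h time point DLGAP5, NUSAP1, KIF11 and CENPF did not pass, while TOP2A did. NUSAP1, KIF11 and CENPF did not pass without the A1 libraries, nor CENPF without A2. Relative to 10 to 16 h, the list's median was −0.53, 0.27, 0.031 and 0.29 at 10, 12, 14 and 16 h. It was 0.20, 0.75, 0.38 and 0.66 at 18, 20, 22 and 24 h. The replication genes PCNA, MCM7 and TYMS had differences of −0.078, −0.0043 and −0.075.

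Promoters of the 3 named mitosis genes with the largest differences among those holding the cell cycle genes homology region (CHR, searched as TTTGAA on both strands) are shown because that motif is known from genes of late cell cycle. Each is the 250 bases before the RefSeq start in GRCh38.p14, 5′ to 3′ on the gene's strand, with CHR and the CCAAT box (CCAAT on both strands, so TTCAAA and ATTGG are the reverse forms) in capitals.
TOP2A, chr17:40417897-40418146, minus strand: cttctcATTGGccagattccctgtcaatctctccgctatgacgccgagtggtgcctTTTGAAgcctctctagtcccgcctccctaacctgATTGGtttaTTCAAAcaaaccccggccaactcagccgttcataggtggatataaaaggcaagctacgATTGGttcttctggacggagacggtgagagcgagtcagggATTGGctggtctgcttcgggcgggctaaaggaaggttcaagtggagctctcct
DLGAP5, chr14:55191586-55191835, minus strand: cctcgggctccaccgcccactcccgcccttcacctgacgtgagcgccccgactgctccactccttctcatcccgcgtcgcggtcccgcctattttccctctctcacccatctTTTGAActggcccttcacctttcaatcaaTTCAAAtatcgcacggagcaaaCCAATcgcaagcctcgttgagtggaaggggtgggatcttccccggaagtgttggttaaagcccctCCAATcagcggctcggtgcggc
KIF11, chr10:92592880-92593129, plus strand: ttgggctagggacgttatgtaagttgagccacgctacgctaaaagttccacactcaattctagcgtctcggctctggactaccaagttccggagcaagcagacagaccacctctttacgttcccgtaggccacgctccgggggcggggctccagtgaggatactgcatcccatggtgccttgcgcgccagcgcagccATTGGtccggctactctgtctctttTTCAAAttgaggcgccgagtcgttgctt
TOP2A and DLGAP5 each held 2 CHR matches and KIF11 held 1, which lay 22 bases before the start. CHR was found in 11 of the 19 mitosis genes with a sequence (57.9%), in 1 of the 19 replication genes with one (5.26%) and in 13.6% of 27305 promoters, and CCAAT in 89.5%, 63.2% and 33.0% of the same sets. Among the 14 mitosis genes that rose, 12 had a sequence and 6 of those held CHR. A match is a description of these letters and not a site in use.

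Signalling genes moved singly. In the retinoic acid list, 2 of 17 rose and 2 fell. CYP26A1, the enzyme that degrades retinoic acid and a direct target of it, ranged between 485 and 844 TPM at 18 to 24 h (median 701), against 919 and 1853 TPM at 10 to 16 h (median 1303) (log2 difference −0.96, SE 0.0866, limma adjusted p = 4.0e-11), with no overlap; its mean was 1787 ± 79.9 TPM at 10 h and 535 ± 56.7 TPM at 24 h (SD, n = 3). ALDH1A1, a retinaldehyde dehydrogenase, ranged between 631 and 1678 TPM at 18 to 24 h (median 1272), against 493 and 1004 TPM at 10 to 16 h (median 696) (log2 difference 0.76, SE 0.168, limma adjusted p = 0.0022). The receptor RARB rose by 0.55 and the binding protein CRABP1 fell by 0.60. ALDH1A1 did not pass without the A1 libraries or without A2, nor RARB without A2, nor CRABP1 without A1 or without 10 h. CYP26A1 kept its call in all 28 alternatives. In the list of WNT and beta-catenin targets 1 of 19 rose and 2 fell, with a median of −0.35, which was 0.21 over the A1 libraries, −0.25 over A2 and −0.32 over B1. CCND1, the cyclin that starts the cell cycle, had a median of 151 TPM at 18 to 24 h (lowest 109, highest 198) against 94.2 TPM at 10 to 16 h (lowest 78.6, highest 129) (log2 difference 0.68, SE 0.109, limma adjusted p = 2.8e-05). The secreted WNT antagonist SFRP2 (−0.80) and the receptor TNFRSF19 (−0.80) fell, and AXIN2, a feedback inhibitor, was at −0.44 without passing (limma adjusted p = 0.072). TNFRSF19 did not pass without the A1 libraries, without B1 or without the 24 h time point.

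BMP7, a BMP ligand, ranged between 42.1 and 105 TPM at 18 to 24 h (median 67.9), against 13.0 and 39.7 TPM at 10 to 16 h (median 31.0) (log2 difference 1.25, SE 0.155, limma adjusted p = 1.3e-07), and its windows did not overlap. In its list of 14, 2 rose and 1, the BMP antagonist GREM1, fell (−0.80), while ID2, ID3 and ID4 did not pass. LFNG, which modifies Notch receptors, rose by 0.63 and NOTCH2 by 0.37, the 2 of 18 Notch pathway genes to pass, where 3.60% of all genes tested rose. LFNG and FOXC1 were also the 2 of 10 paraxial mesoderm genes to pass. No gene of 15 in the FGF and ERK feedback list passed limma's threshold, and 1 was at an unadjusted p under 0.05; FGFR1, FGFR2 and FGFR3 had differences of 0.27, 0.19 and 0.064.

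Immediate early genes rose in 5 of 20 cases, with none lower and a median of 0.61. CTGF, a secreted matrix-associated protein and target of YAP, ranged between 441 and 853 TPM at 18 to 24 h (median 606), against 199 and 317 TPM at 10 to 16 h (median 255) (log2 difference 1.24, SE 0.0902, limma adjusted p = 7.7e-14). Its windows stood apart, with all libraries of 18 to 24 h above all of 10 to 16 h. CYR61, its relative, had a median of 129 TPM at 18 to 24 h (lowest 85.0, highest 192) against 82.5 TPM at 10 to 16 h (lowest 54.4, highest 141) (log2 difference 0.68, SE 0.129, limma adjusted p = 3.4e-04). EGR1 (1.50), JUND (0.71) and KLF6 (0.59) rose too. COL1A2, a chain of type I collagen, ranged between 438 and 757 TPM at 18 to 24 h (median 629.7), against 258 and 469.9 TPM at 10 to 16 h (median 312) (log2 difference 0.95, SE 0.0804, limma adjusted p = 8.6e-12), and COL2A1, COL5A1 and COL11A1 rose by 0.80, 0.64 and 0.65, while COL4A1, of basement membranes, fell by 0.62. The matrix list had 5 of 22 higher and 2 lower.

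Markers of smooth muscle and fibroblasts were uneven. Of 16 tested, 4 rose and 1 fell, with a median of 0.32 that turned with the label: −0.32 over the A1 libraries, against 0.60 over A2 and 0.45 over B1. COL1A1 ranged between 12.5 and 271 TPM at 18 to 24 h (median 88.9), against 10.1 and 207 TPM at 10 to 16 h (median 22.4), and its time-point means were not ordered by hour: 83.5, 21.0, 77.8 and 36.9 TPM at 10, 12, 14 and 16 h, and 155, 35.7, 92.9 and 97.4 TPM at 18, 20, 22 and 24 h. ETS1 had its extremes at the same hours, lowest at 12 h (4.06 TPM) and highest at 18 h (53.2 TPM), and neither it nor COL1A1 passed without the A2 libraries or without B1. PDGFRB rose by 0.83, PDGFRA fell by 1.48, and TAGLN and TPM1 did not pass. The list summed to between 1204 and 3129.6 TPM at 18 to 24 h, with a median of 1930.3, and to between 1047 and 2817 TPM at 10 to 16 h, with a median of 1267; its part in the rise of the matrix genes was not tested. None of 10 endothelial and blood markers passed limma's threshold, and none was at an unadjusted p under 0.05.

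Chaperones fell. Of 20 heat shock and oxidative stress genes 9 were lower and none was higher, with a median of −0.38, and the TPM of the list summed to between 5053 and 6913 at 18 to 24 h, against between 7244 and 10081 at 10 to 16 h, so the sums did not overlap. HSPA8, the constitutive HSP70, ranged between 1071 and 1643 TPM at 18 to 24 h (median 1283), against 1727 and 3114 TPM at 10 to 16 h (median 2533) (log2 difference −0.88, SE 0.0622, limma adjusted p = 3.6e-14). HSPH1, an exchange factor of HSP70, ranged between 92.8 and 151 TPM at 18 to 24 h (median 120.4), against 159 and 325 TPM at 10 to 16 h (median 228) (log2 difference −0.91, SE 0.0995, limma adjusted p = 7.0e-09). HSP90AA1, an inducible HSP90, ranged between 1239 and 1812 TPM at 18 to 24 h (median 1363), against 1874 and 2418 TPM at 10 to 16 h (median 2039) (log2 difference −0.53, SE 0.0794, limma adjusted p = 6.6e-06). None of these 3 genes overlapped between windows. DNAJA1 fell by 0.73 and the mitochondrial chaperonin HSPD1 by 0.38, and HMOX1, GCLC, TXNRD1 and DNAJB1 by 0.26 to 1.33. HSPA1B, which shares reads with its near-identical copy HSPA1A, and MT2A did not pass (−0.38 and 0.89). Of 22 genes of the amino acid response and the endoplasmic reticulum, 7 fell and 1, VLDLR, rose (0.67). CALR fell by 0.44, HERPUD1 by 0.80 and SLC3A2 by 0.64. HSPA5, the chaperone BiP, had a median of 500.3 TPM at 18 to 24 h (lowest 432, highest 643) against 626 TPM at 10 to 16 h (lowest 378, highest 1204) and fell by 0.37, a difference carried by 10 and 12 h at 1110.2 ± 102 and 793 ± 64.3 TPM (SD, n = 3); for 18 and 20 h minus 14 and 16 h alone its sign turned, to 0.21.

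The promoters of the 2 named chaperones that fell and hold a heat shock element (searched as GAANNTTC, which reads the same on both strands) are given for the same window, with the element in capitals.
HSPA8, chr11:123062137-123062386, minus strand: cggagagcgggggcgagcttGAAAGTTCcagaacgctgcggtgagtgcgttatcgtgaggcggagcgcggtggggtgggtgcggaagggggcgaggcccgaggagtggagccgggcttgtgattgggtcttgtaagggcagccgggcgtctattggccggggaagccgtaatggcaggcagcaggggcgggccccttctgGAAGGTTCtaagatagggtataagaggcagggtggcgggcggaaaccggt
DNAJA1, chr9:33025023-33025272, plus strand: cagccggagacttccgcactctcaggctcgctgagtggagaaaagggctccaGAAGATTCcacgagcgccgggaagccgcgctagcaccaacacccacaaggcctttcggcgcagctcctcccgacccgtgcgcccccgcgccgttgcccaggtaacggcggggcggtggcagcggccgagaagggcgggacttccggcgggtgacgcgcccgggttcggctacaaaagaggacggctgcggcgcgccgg
HSPA8 held 2 matches, the nearer 42 bases before the start, and DNAJA1 held 1, 190 bases before it. As for CHR, a match is a description of these letters and not a site in use. The element was in 4 of the 16 heat shock and oxidative stress genes with a sequence (25.0%), in 2 of 8 of those that fell, and in 5.85% of all promoters.

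Of 24 cholesterol and fatty acid genes 6 rose and none fell, with small differences, among them FDFT1 0.45, CYP51A1 0.48, SREBF2 0.41 and INSIG1 0.31. In the hypoxia and glycolysis list BNIP3L, P4HA1 and ALDOA rose by 0.46, 0.42 and 0.29, the glucose transporter SLC2A3 fell by 0.46, and PGK1, LDHA and ENO1 did not pass. Of 20 ribosome biogenesis factors 2 fell, NOP56 (−0.50) and UTP20 (−0.84), and all 20 had a negative difference, with a median of −0.39. None of 25 cytosolic ribosomal proteins, 24 oxidative phosphorylation genes or 16 p53 targets passed limma's threshold, with 1, 3 and 3 at an unadjusted p under 0.05. Of 14 clock genes NR1D2 alone passed, and it was higher (0.35), where 3.60% of all genes tested were higher. Among 8 housekeeping genes ACTB rose by 0.22 and PPIA fell by 0.28.

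**Figure D3:**
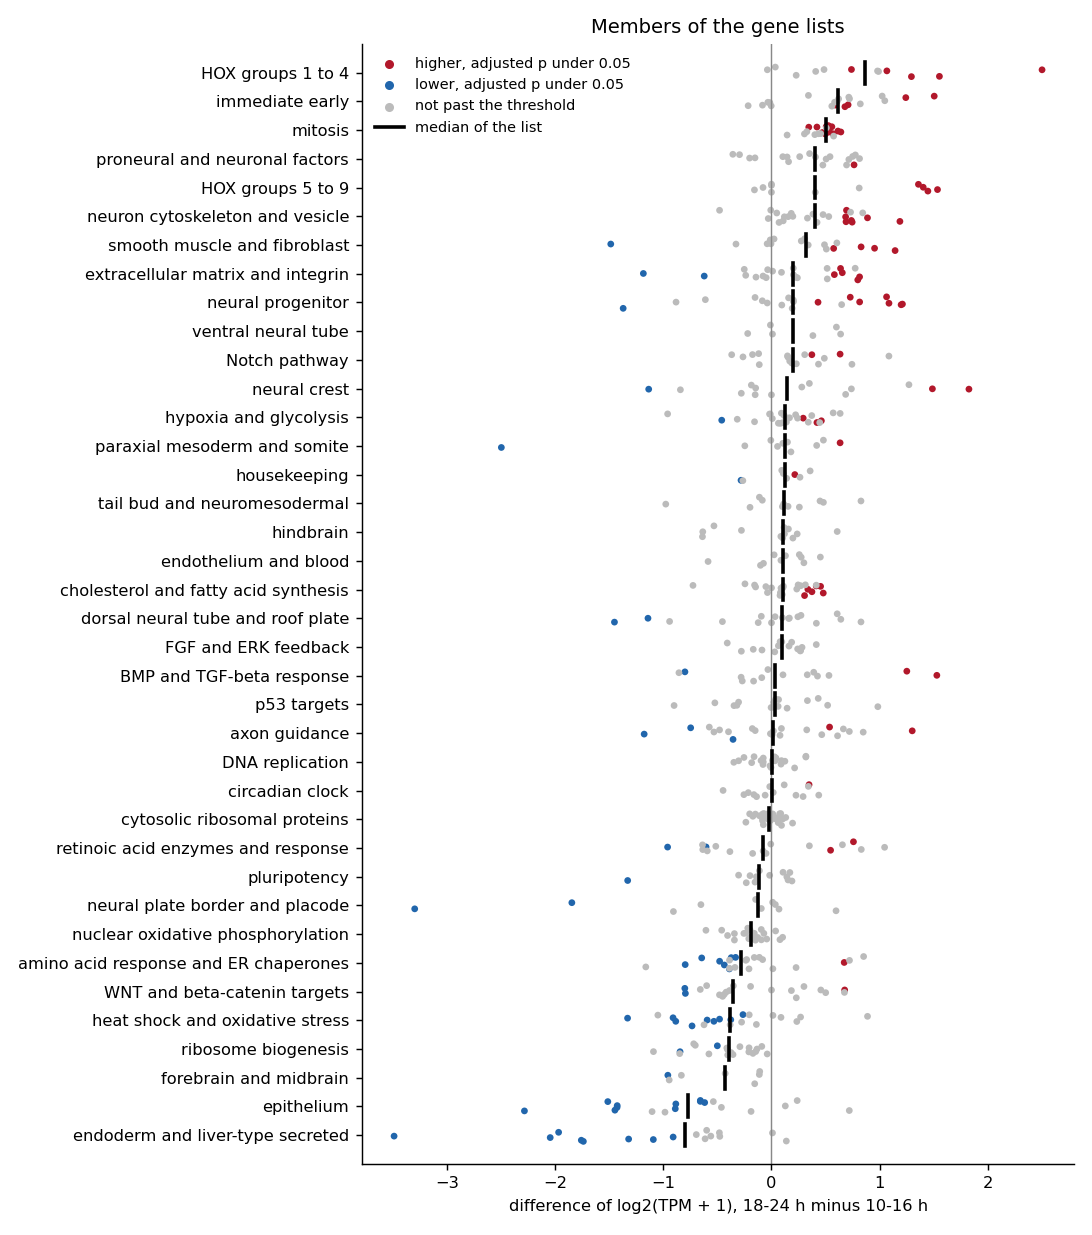
Difference of log2(TPM + 1), 18 to 24 h minus 10 to 16 h, for each tested member of 38 gene lists, ordered by the list's median (black bar); red members were higher and blue members lower at an adjusted p under 0.05. HOX groups 1 to 4 stand at the top with a median of 0.86 and the epithelial and endoderm lists at the bottom with −0.77 and −0.80. Of all genes tested, 3.60% were higher and 2.74% lower.

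The means of the 8 time points show at which exposure lengths the levels differed. DLX5 averaged 63.9, 48.4, 47.5 and 27.0 TPM at 10, 12, 14 and 16 h, then 22.0 TPM at 18 h and 1.82, 3.76 and 2.60 TPM at 20, 22 and 24 h. HSPA8 was highest at 10 h and lowest at 24 h of the 8, with each mean below the one before: 2885, 2773, 2319, 1851, 1547, 1351, 1263 and 1118 TPM. CTGF did not change in that way: its 4 means of 10 to 16 h were 230 to 278 TPM and its 18 h mean was 529 TPM. The median of the genes called higher moved, relative to 10 to 16 h, from −0.23 at 10 h through 0.20 at 16 h and 0.49 at 18 h to 0.91 at 24 h. That of the genes called lower moved from 0.33 through −0.23 and −0.52 to −1.00 at the same hours. Both sets of genes were called on these same libraries, so the separation of their windows was fixed by that choice. Comparing 18 and 20 h with 14 and 16 h alone left 43 genes past the threshold, against 945 for 22 and 24 h minus 10 and 12 h. Without the 10 h time point 442 passed and without the 24 h time point 449.

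**Figure D4:**
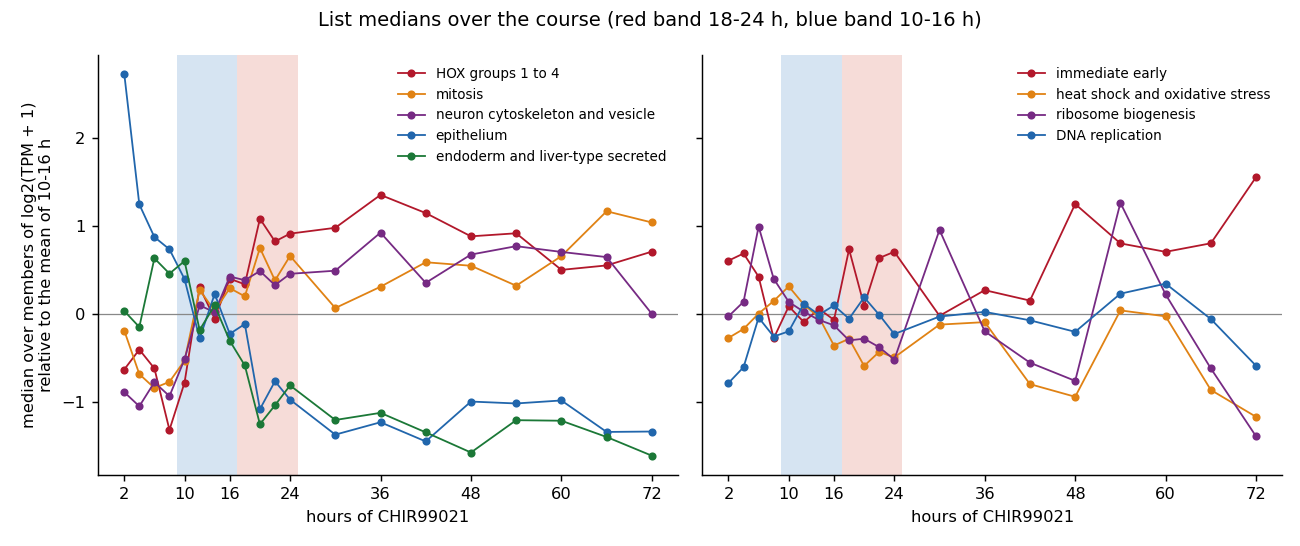
Median over list members of log2(TPM + 1) relative to the mean of 10 to 16 h, at each of the 20 time points, for 5 lists (left) and 4 lists (right); the red band is 18 to 24 h and the blue band 10 to 16 h. Epithelial and endoderm medians were at most −0.77 and −0.81 from 20 h on, while the heat shock and ribosome biogenesis medians were low at 24, 48 and 72 h and near or above 0 at 54 and 60 h.

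The same hours of the day, counted from the start of CHIR99021, were compared 1 and 2 days later: 42, 48, 66 and 72 h (11 libraries) against 36 and 60 h (6 libraries). None of these libraries enters the day-one difference. There 191 genes (1.25%) were higher and 684 (4.47%) lower, with a median of −0.093 over all genes tested. With median-ratio scaling the split was 298 higher and 588 lower, and with quantile normalization 336 and 611; that median was then −0.051 and 0.0061. Of the genes that rose on day one 83 also rose there, which is 15.1% of the day-one genes and 43.5% of the later ones. Of the genes that fell, 109 fell in both, or 26.0% and 15.9%. Opposite calls were made for 10 genes, 9 of them higher on day one. Without the libraries labelled A1 239 genes passed and without those labelled A2 238. Leaving out single libraries of 36 and 60 h gave 590 to 807.

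HSPA8 ranged between 893 and 1366 TPM at 42, 48, 66 and 72 h (median 958), against 2129.9 and 2844 TPM at 36 and 60 h (median 2260.4) on those days (log2 difference −1.15, SE 0.0777, limma adjusted p = 6.4e-15). HSPH1 (−1.59), HSP90AA1 (−0.93), CYP26A1 (−0.91), CTGF (0.98), COL1A2 (0.75) and RRAD (3.12) also passed in the direction of day one. TOP2A and DLGAP5 rose there by 0.41 and 0.38, and 5 of 22 mitosis genes passed in all.

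The difference between the 2 differences was tested as an interaction contrast, which 199 genes passed: for 149 (0.974%) the day-one difference was the higher and for 50 (0.327%) the lower, with a median of 0.12 over all genes tested. With median-ratio scaling the split was 114 and 78, around a median of 0.045. CDH1 ranged between 0 and 44.1 TPM at 42, 48, 66 and 72 h (median 0.240), against 0 and 1.98 TPM at 36 and 60 h (median 0.150) on the later days, where its difference was 0.57, and the contrast was −2.85 (limma adjusted p = 0.0049). The value of 44.1 TPM came from a single library of 42 h, where CDH1 averaged 14.9 ± 25.2 TPM (SD). DLX5 was at a median of 0 TPM in both later sets, and its contrast was −3.05 (limma adjusted p = 9.5e-05). Where a gene is at or near 0 in both later sets, the contrast rests on the day-one difference. HOXC4 stayed expressed and ranged between 14.3 and 80.9 TPM at 42, 48, 66 and 72 h (median 33.7), against 17.1 and 29.5 TPM at 36 and 60 h (median 26.0) (contrast 2.00, limma adjusted p = 0.0037). NES ranged between 190.5 and 387 TPM at 42, 48, 66 and 72 h (median 227), against 231 and 280.1 TPM at 36 and 60 h (median 247), a difference of −0.028, and its contrast was 0.84 (limma adjusted p = 9.3e-05). For POU3F2, MAP2, STMN2, RELN, PTPRZ1 and SOX1 the contrast was also positive and passed. Each of these had its lowest mean of the 8 day-one time points at 10 h, an hour with no later counterpart. The contrast rests on few libraries: without the 60 h A2 library 130 genes passed it, and without the 60 h B1 library 126. With the day-one hours matched to the later ones, as 18 and 24 h minus 12 h, 13 passed, 11 of them among the 199. That term also uses fewer libraries, and the part of the hours in the lower count was not tested.

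**Figure D5:**
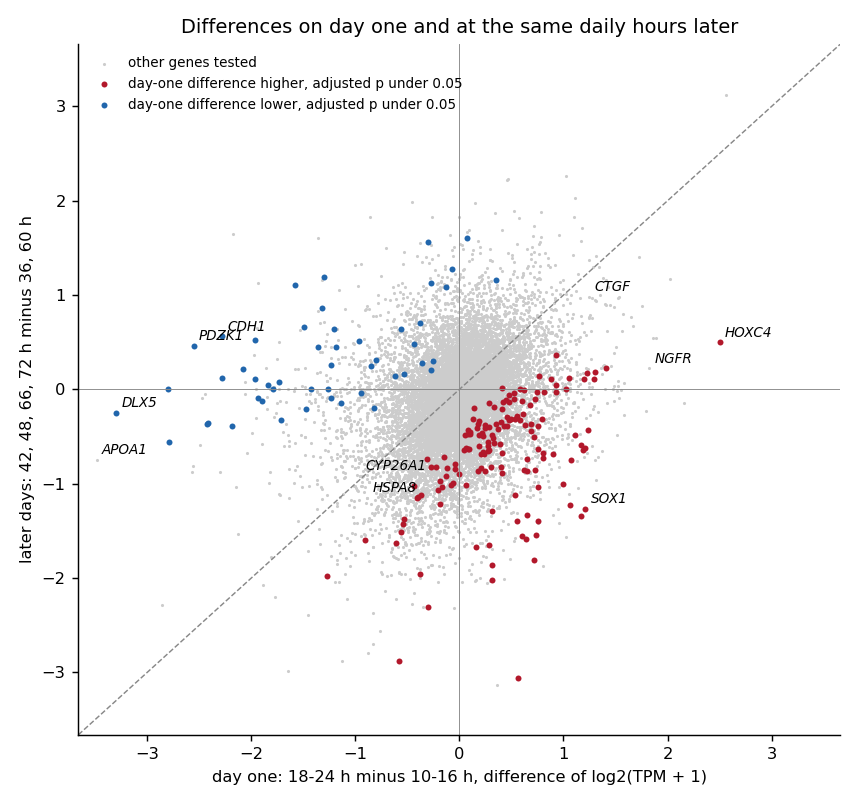
Difference of log2(TPM + 1) on day one (x axis) and at the same daily hours on later days (y axis) for the 15305 genes tested; red and blue points passed the test that the day-one difference is higher or lower, and the dashed line marks equal differences. CTGF, HSPA8 and CYP26A1 lie near the dashed line, and DLX5, PDZK1, CDH1 and HOXC4 lie near a later difference of 0.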

How the data were processed

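The authors deposited TPM for 19084 symbols, made with CASAVA 1.8.2, Bowtie 0.12.8 and RSEM 1.2.3 on hg19, per the submitters' processing notes; no gene annotation is named in the sources used. Per the labels' protocols, libraries came from 100 ng of total RNA by oligo-dT selection, adapter ligation and 18 PCR cycles, read as single 51 bp reads. TPM keep no depth, and RSEM apportions reads between near-identical genes, so those values are uncertain.

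Values were taken as log2(TPM + 1) for 15305 genes, those that reached 1 TPM in 3 or more of 59 libraries. A limma 3.58.1 fit in R 4.3.3 of 20 time-point means (39 residual df, intensity trend, Benjamini-Hochberg adjusted p under 0.05) gave 3 contrasts: 18 to 24 h minus 10 to 16 h, the same daily hours on later days, and their difference. In simulated data of 15305 genes for the first contrast, limma recovered 46% of genes given a log2 change of 1 and 84% of genes given 2, and made 11 false calls. The windows, the 38 gene lists and the rule for named genes were chosen with earlier results of these data known.

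The rule named the 15 highest and 15 lowest genes past the threshold that averaged 5 TPM or more in either window and whose time-point means did not overlap, HOX genes with a mean of at least 2 TPM, up to 5 members past the threshold and 3 others per list, and 5 genes each way for the difference between days. Other list members were added after their values were seen, and some genes that the rule names are not reported here. Groups and hours came from the labels. Alternatives varied the pseudocount, filter, scaling, replicate block, windows and libraries; the leave-outs of single libraries were chosen after seeing the data. Deviations of same-labelled libraries had a median correlation of 0.0049, against −0.0023 for other labels. Of the libraries, 54.2% correlated best with their own label out of the 3, a share that was not tested against chance. No block was used in the main fit, and a fit with a block is among the alternatives. Promoters are the first RefSeq entry of each gene in GRCh38.p14, another build than the files', and serve for sequence only. Python 3.11.15 and matplotlib 3.10.9 drew the figures.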

Additional observations from a re-analysis of the deposited data

Results flagged for a closer look

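For 39 of the genes reported the day-one difference (18 to 24 h minus 10 to 16 h) differed from that of the same daily hours on later days, by limma's interaction contrast at an adjusted p under 0.05. The day-one windows hold hours that have no later counterpart. With matched hours, as 18 and 24 h minus 12 h on day one, 13 of all genes tested passed, 11 of them among the 199. That term uses fewer libraries. Each value below is the day-one log2 difference minus the later one, so a positive value means that 18 to 24 h stood higher against 10 to 16 h than 42, 48, 66 and 72 h stood against 36 and 60 h.

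The contrast was positive for genes of neural progenitors, neurons and their guidance: SOX1 (2.47), POU3F2 (1.09), NES (0.84), PTPRZ1 (0.83), STMN2 (1.83), RELN (1.13), MAP2 (0.77) and PLXNA2 (1.12). It was positive for the HOX genes HOXC4 (2.00) and HOXB4 (1.18), for the patterning and signalling genes DBX2 (2.23), VSX1 (2.51), PAX3 (0.87), LFNG (1.01), ID3 (0.90) and ALDH1A1 (1.38), and for the cholesterol genes CYP51A1 (0.61) and HMGCS1 (0.58). The remaining positive values were for RABL2A (3.62), CALB1 (2.29), HSPH1 (0.68), TP53INP1 (0.68), ACTB (0.68) and YWHAZ (0.34). RABL2A has a near-identical copy, so its value is uncertain.

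Not all of these rose on day one. CALB1, a calcium-binding protein, ranged between 83.6 and 773 TPM at 18 to 24 h (median 205), against 223 and 485 TPM at 10 to 16 h (median 316), a difference of −0.58 that did not pass, and ranged between 0 and 92.9 TPM at 42, 48, 66 and 72 h (median 0.930), against 3.24 and 268 TPM at 36 and 60 h (median 61.4). HSPH1 fell in both comparisons and by less on day one (−0.91 against −1.59).

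The contrast was negative for the epithelial and endodermal genes CDH1 (−2.85), GRHL2 (−1.43) and FOXA1 (−2.07), for the placodal gene DLX5 (−3.05), and for PDZK1 (−3.02), ACMSD (−2.80), IRS4 (−2.69), SLC16A4 (−2.40), ABCC2 (−2.24), PRDM1 (−2.06), TFEC (−2.06), SCN7A (−1.80), HERPUD1 (−1.11), NR1D2 (−0.81) and ROBO2 (−0.64). At 42 h CDH1 and SLC16A4 averaged 14.9 ± 25.2 and 20.1 ± 27.2 TPM (SD). At 72 h PDZK1 averaged 5.45 ± 9.45 TPM. The part of these uneven hours in the contrasts was not tested. NR1D2, a repressor in the circadian clock, rose in both comparisons and by less on day one (0.35 against 1.16). The 36 and 60 h set holds 6 libraries, and without the 60 h B1 library 126 of all genes tested passed the contrast, against 199 with it.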

How the results depend on the processing

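The count of 971 genes for 18 to 24 h minus 10 to 16 h stayed within 1.5 times under both other pseudocounts, both other filters, quantile and median-ratio scaling and each left-out library. It was 2008 without the 3 libraries with under 10000 genes, 2442 in a fit of the 24 libraries alone and 2004 in a fit of 2 window means in them. It was 43 for 18 and 20 h minus 14 and 16 h, 442 without the 10 h time point and 449 without 24 h. Leaving out a replicate label gave 271 to 897. With the replicate block the counts were 960, 875 for the later days and 199 for the difference between days. All 126 named genes past the threshold kept their call with it. The labels do not say whether the libraries are paired. For the later days the count of 875 became 1484 without the 3 libraries, 172 with 42 and 48 h minus 36 h alone, 541 with 66 and 72 h minus 60 h alone and 238 to 611 without a label. For the difference between days the count of 199 became 478 without the 3 libraries, 13 with 18 and 24 h minus 12 h as the day-one term, 130 without the 60 h A2 library, 126 without the 60 h B1 library and 20 to 97 without a label. Of the 126 named genes, 66 kept their call without A1, 83 without A2 and 107 without B1. Calls held in 15 of 28 alternatives for VSX1, 17 for COL1A1, GREM1 and ROBO2, 18 for INSIG1, 19 for ALDOA, EGR1, SLIT1, ETS1, SYT1 and ACTB, and 20 for NOTCH2 and NR1D2. HSPA5 (0.21) and SLIT1 (−0.020) turned sign for 18 and 20 h minus 14 and 16 h, and no other named gene past the threshold did so under the alternatives run. Where no construction of the alternative shows it, the cause was not tested. Depth is unknown, so genes listed at 0 have no detection limit.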

Other observations

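Over the whole course, some lists were high or low again at hours a day apart. The medians of the heat shock and oxidative stress list, relative to 10 to 16 h, were −0.50, −0.94 and −1.17 at 24, 48 and 72 h, against −0.12 and 0.04 at 30 and 54 h. The ribosome biogenesis list was at 0.99, 0.95 and 1.26 at 6, 30 and 54 h, and at −0.52, −0.76 and −1.39 at 24, 48 and 72 h. The hypoxia and glycolysis list was at −0.67, −0.97 and −0.72 at 6, 30 and 54 h. On day one it was also low at 4 and 8 h (−0.60 and −0.96), so 6 h was not its lowest hour there. HSPA8 averaged 1118 ± 48.1, 918 ± 22.1 and 922 ± 26.6 TPM at 24, 48 and 72 h, and 2177 ± 70.6 and 1690.3 ± 91.4 TPM at 30 and 54 h (SD, n = 3, but n = 2 at 48 h). The labels give no clock times.

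KCNE1L, PDZK1 and MPZL2 each separated all 12 libraries of 18 to 24 h from all 12 of 10 to 16 h and belong to none of the 38 lists. OLIG3, a dorsal progenitor factor, was lower on day one (−1.45) and on later days (−2.39). Its means were 150.4, 98.8, 93.8 and 55.3 TPM at 10, 12, 14 and 16 h. They were 49.0, 77.6, 39.8 and 12.6 TPM at 18, 20, 22 and 24 h, and 81.75 TPM at 60 h. The day-one call of OLIG3 held in 22 of 28 alternatives, and not without A1, A2, 10 h or 24 h.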
